A study of Mus musculus with 6 samples.

Results

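Frizzled and Ror proteins are the cell-surface receptors to which Wnt ligands bind. The account covers 10 genes chosen by name, the 8 Frizzled genes Fzd1 to Fzd8 and the 2 Ror genes Ror1 and Ror2, out of 24346 gene symbols in the files. All 10 were among the 12022 genes tested, so no member was lost to the filter on low values. Expression was compared between primary stromal cells of C57BL/6 mouse prostate (animals aged 8 to 12 weeks) carrying the lentiviral vector FU-CGW, and the same kind of cells carrying that vector with a complementary DNA for S37A β-catenin. There were 3 libraries in each of the 2 groups, all from cells cultured on collagen with 1e-10 M dihydrotestosterone and used within 3 weeks of dissociation. Cells that had not attached after 30 minutes of replating were discarded. S37A β-catenin lacks a serine whose phosphorylation leads to breakdown of the protein, so it accumulates without a Wnt signal. The infected share of the cells is not given, the introduced coding sequence was added to cells that keep their own Ctnnb1, and whether the replicates of a group are separate animals or cultures is not given either. The p-values therefore measure the spread between these libraries, which may be technical.

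Frizzleds are seven-pass membrane proteins whose extracellular cysteine-rich domain binds the lipid-modified Wnt. With the co-receptors Lrp5 and Lrp6 they recruit Dishevelled and stabilise β-catenin, and without them they can signal to the cytoskeleton or to calcium. Ror1 and Ror2 are single-pass receptors with a kinase-like domain that bind Wnt5a-type ligands and act mainly outside the β-catenin branch. By sequence the Frizzleds fall into the groups Fzd1, Fzd2 and Fzd7, then Fzd5 and Fzd8, then Fzd3 and Fzd6, with Fzd4 apart. In the stroma of an organ, Wnt receptors receive signals from neighbouring stromal cells and from epithelium.

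Levels are in FPKM, a fragment count scaled by model length and library size, so that genes can be compared as far as the model lengths hold. For Fzd4, Fzd8 and Ror1 the deposited models had 3685, 3346 and 3542 bases. The matched GENCODE M21 transcripts had 6720, 5974 and 5762 bases, so the levels of these genes beside other genes depend on the model used. The interval widths in the files corresponded to about 38.0 to 47.7 M fragments per library (M, mega), and 10959 to 11093 genes reached 1 FPKM. Ctnnb1, whose deposited value does not separate the introduced from the cells' own sequence, measured 116, 99.1 and 116 FPKM in vector against 132, 144 and 146 FPKM in S37A (limma adjusted p = 0.0158). Stromal genes were abundant, with Col1a1 between 1444 and 2063 FPKM and Acta2 between 3118 and 3700 FPKM, although Lum, another fibroblast gene, did not exceed 0.502 FPKM. The endothelial gene Emcn was also present at 67.3 to 81.7 FPKM, and the epithelial gene Epcam at 0.474 to 1.01 FPKM. Levels within both lists varied widely. The endothelial gene Cldn5 did not exceed 0.488 FPKM, and the epithelial gene Cldn4 ran from 7.68 to 14.7 FPKM. None of 8 tested epithelial and none of 7 tested endothelial markers passed the test, with summed list levels of 27.7 to 38.8 and 100.2 to 113 FPKM in vector and of 23.9 to 37.7 and 95.9 to 99.6 FPKM in S37A. Of 9 tested stromal markers 2 were higher and 1 lower, where 6.06% of all genes tested were higher and 19.9% lower. Most macrophage markers moved with the groups: 7 of 9 tested were higher in S37A, of which C1qa, C1qb and C1qc had vector means under the filter of 0.5 FPKM and entered the test only through S37A. Csf1r, higher in all S37A libraries, and Cd14, whose groups overlapped, did not pass (limma adjusted p = 0.0883 and 0.153). The summed level of the 11 listed genes in the files ran from 23.1 to 28.9 FPKM in vector and from 59.4 to 66.8 FPKM in S37A. Lyz2 was the largest part of that sum, at 12.9 to 16.3 FPKM in vector and 33.8 to 38.9 FPKM in S37A. The pan-leukocyte gene Ptprc ran from 0.0827 to 0.108 FPKM in vector and from 0.122 to 0.153 FPKM in S37A, and the macrophage gene Adgre1 from 0.0407 to 0.0984 and from 0.127 to 0.293 FPKM. Both were untested, above 0 in every library, and higher in all S37A than in all vector libraries. The part of other cell types in the receptor values was not tested. In these bulk samples, more cells of a type and more RNA per cell cannot be told apart.

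Of the 10 receptors, Fzd1 and Ror1 rose in S37A and none fell. The test was limma on log2(FPKM + 1) over all genes, with Benjamini-Hochberg adjustment and a threshold of 0.05. Across all genes it called 6.06% higher and 19.9% lower. The median log2 difference, S37A minus vector, was 0.07 over the 10 receptors and -0.07 over all genes tested. By mean level Fzd1 came after Fzd2 and Fzd7 in vector and after Fzd2 alone in S37A, while Fzd2, the most abundant, and Fzd7 differed little between the groups.

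**Figure D1:**
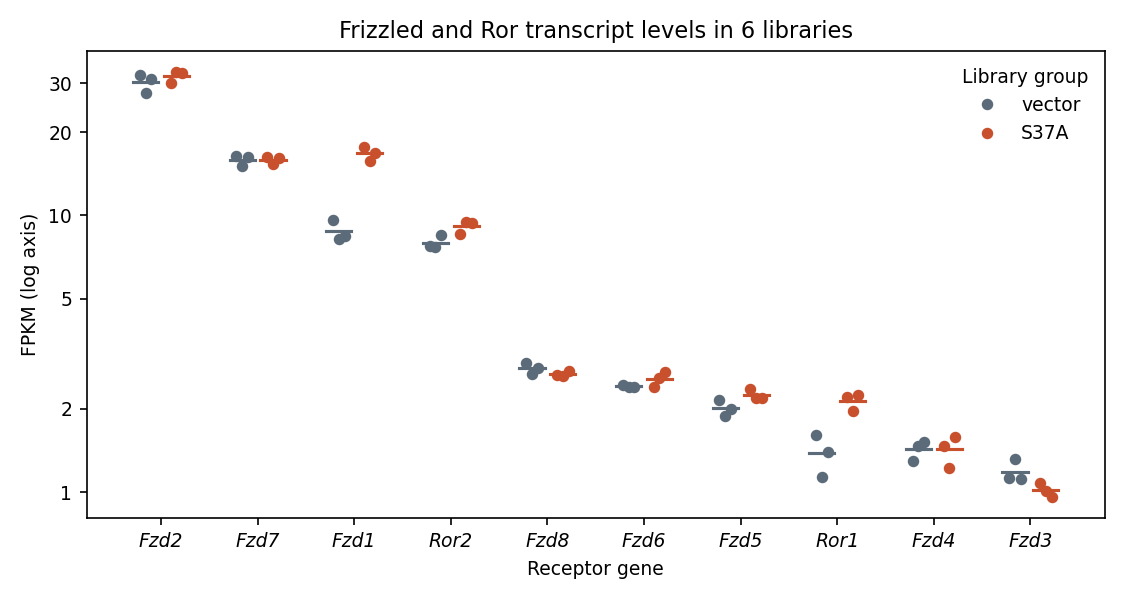
FPKM (log axis) of each receptor gene in the 3 vector and 3 S37A libraries, ordered by mean level, with 1 point per library and a line at each group mean. Fzd1 runs from 8.21 to 9.62 FPKM in vector and from 15.8 to 17.7 FPKM in S37A. Ror1, Ror2 and Fzd5 also lie wholly higher in S37A and Fzd3 wholly lower, while Fzd2, Fzd7 and the remaining receptors overlap. Of the receptors that are apart, only Fzd1 and Ror1 passed the test.

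Fzd1, a Frizzled that can couple to both the β-catenin and other Wnt branches, lies on chromosome 5 from 4753839 to 4758035 (mm10, minus strand, protein-coding, 1 exon). The vector replicates measured 9.62, 8.21 and 8.44 FPKM, and the S37A replicates 17.7, 15.8 and 16.9 FPKM. Every S37A library was above every vector library. Means were 8.76 ± 0.757 and 16.8 ± 0.970 FPKM (SD, n = 3 each), a ratio of 1.92. On the log2 scale Fzd1 was higher by 0.87 (SE 0.07, 95% interval 0.71 to 1.02, limma adjusted p = 0.00125). Permuting the group labels exactly (two-sided) returned p = 0.1, below which a design with 3 replicates per group cannot go.

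The Fzd1 values rested on many fragments. The interval widths corresponded to between 1701 and 3630 fragments per library, and the deposited intervals, at most 4.85% of the value to either side, reached no higher than 10.0 FPKM in vector and no lower than 15.2 FPKM in S37A. By size the rise was the 56th largest among the 12022 genes. Among the 4266 genes whose mean level was within 2-fold of that of Fzd1, 17 had a larger log2 difference. Fzd1 was called in all 17 alternatives tried, with adjusted p from 0.000143 to 0.0122.

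Fzd1 shares its longest identical stretches with its own subfamily. Its transcript has 47 bases in a row in common with that of Fzd2 and 47 with that of Fzd7, and the pair Fzd2 and Fzd7 share 38. No other pair of the receptors shares more than 32 bases.

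Fzd2 and Fzd7, the closest relatives of Fzd1, did not pass the test. Fzd2 (chromosome 11, 102604396 to 102608058, plus strand, 1 exon) stood at 32.1, 27.8 and 31.2 FPKM in vector and at 30.2, 33.0 and 32.8 FPKM in S37A. The lowest of these 6 values was a vector library and the highest an S37A library, and the groups overlapped. The log2 difference of Fzd2 was 0.07 (95% interval -0.07 to 0.22, limma adjusted p = 0.386). Fzd7 (chromosome 1, 59482424 to 59486955, plus strand, 1 exon) stood at 16.3, 15.1 and 16.3 FPKM in vector and at 16.3, 15.4 and 16.1 FPKM in S37A. The S37A range lay within the vector range. The interval of the Fzd7 difference, -0.10 to 0.11 on the log2 scale, excludes a rise of the size seen for Fzd1.

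Ratios of receptors within a library are not altered by multiplying all values of that library by 1 factor. Fzd1 was at 0.589, 0.545 and 0.519 of the Fzd7 level in the vector libraries and at 1.09, 1.02 and 1.05 in the S37A libraries. Fzd1 thus lay below Fzd7 in every vector library and above it in every S37A library. The ratio of Fzd1 to Fzd2 went from 0.289 ± 0.0159 to 0.526 ± 0.0552 (SD, n = 3), again without overlap. For both ratios the exact two-sided permutation p was 0.1, the smallest possible, and 0.12 after adjustment over the 6 ratios computed within subfamilies. Fzd2 to Fzd7 was 1.91 ± 0.0607 in vector and 2.01 ± 0.146 in S37A (exact permutation p = 0.3).

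As a share of the summed FPKM of the 8 Frizzled genes, Fzd1 made up 14.1%, 13.5% and 12.8% in vector and 23.9%, 21.4% and 22.2% in S37A. The largest share in every library was that of Fzd2, on average 46.8% in vector and 42.9% in S37A, and Fzd7 had 24.5% and 21.3%. The summed Frizzled level was 60.8 to 68.0 FPKM in vector and 73.8 to 76.0 FPKM in S37A. Without Fzd1 it was 52.6 to 58.4 and 56.4 to 59.1 FPKM, which overlap. Of the 9.76 FPKM by which the mean sum differed, 1.74 FPKM came from the other 7 genes.

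**Figure D2:**
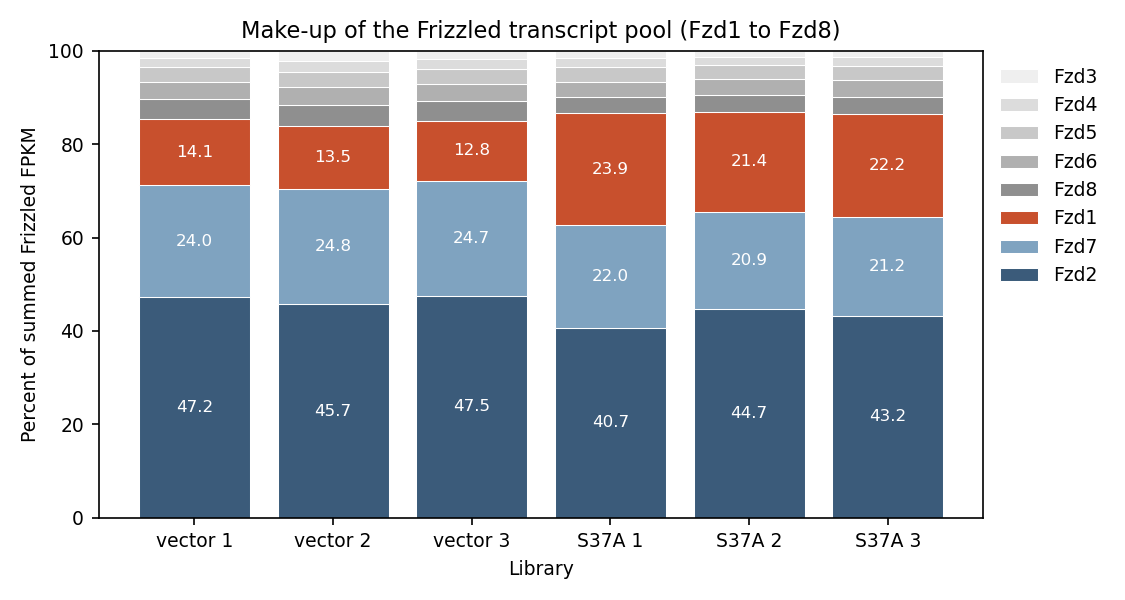
Percent of the summed Frizzled FPKM (vertical axis) taken by each of Fzd1 to Fzd8 in each of the 6 libraries, with the shares of Fzd1, Fzd2 and Fzd7 printed. Fzd1 takes 12.8% to 14.1% in the vector libraries and 21.4% to 23.9% in the S37A libraries.

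Ror1, a receptor of the Wnt5a branch that is high in embryonic mesenchyme, was the other gene that rose. It lies on chromosome 4 from 100095791 to 100444765 (plus strand, 9 exons in the model used). Its level was 1.61, 1.14 and 1.40 FPKM in vector and 2.21, 1.97 and 2.24 FPKM in S37A, with all S37A libraries above all vector libraries. Means were 1.38 ± 0.237 and 2.14 ± 0.152 FPKM, a ratio of 1.55, and on the log2 scale Ror1 was higher by 0.40 (SE 0.08, 95% interval 0.21 to 0.59, limma adjusted p = 0.0160). Ror1 was measured on only 199 to 357 fragments per library, and the deposited intervals of the groups overlapped, reaching 1.81 FPKM in vector and down to 1.73 FPKM in S37A. Without S37A replicate 3 it was no longer called (adjusted p = 0.0614, against 0.00331 to 0.0614 over the 16 alternatives in which it was tested).

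Ror2, the relative of Ror1 required for Wnt5a responses in limb and skeletal development, is on chromosome 13 from 53109312 to 53286124 (minus strand, 9 exons). It stood at 7.75, 7.68 and 8.47 FPKM in vector and at 8.56, 9.45 and 9.40 FPKM in S37A. The groups did not overlap, but the highest vector library and the lowest S37A library nearly touched. The log2 difference of 0.18 (SE 0.05, 95% interval 0.05 to 0.31) had an adjusted p of 0.0502 by limma, just outside the threshold, with an unadjusted p of 0.0131. It was called in 8 of 17 alternatives, among them median-ratio scaling (adjusted p = 0.0213), with a range of 0.0213 to 0.152. Ror2 exceeded Ror1 in every library, by 4.82, 6.76 and 6.04 times in vector and by 3.87, 4.81 and 4.19 times in S37A. The ratio did not overlap between the groups (exact permutation p = 0.1, or 0.12 adjusted over 6 ratios). Vector replicate 1 (4.815) and S37A replicate 2 (4.807) nearly touched.

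The regions before the transcription starts of the receptors are shown because β-catenin acts on genes through TCF/LEF factors, which bind DNA around the letters CTTTG. RefSeq windows (GRCm38.p6) were found for 6 of the 10 genes. The 250 bases before the start are printed 5′ to 3′ on the gene's strand for the 2 genes that rose and for Fzd7, which did not pass, with each CTTTG or its reverse complement CAAAG in capitals. The windows are chr5:4758217-4758466 (minus strand) for Fzd1, chr4:100095541-100095790 (plus strand) for Ror1 and chr1:59481897-59482146 (plus strand) for Fzd7. The RefSeq starts of Fzd1 (4758216) and Fzd7 (59482147) lie upstream of the GENCODE gene spans given above. That of Ror1 (100095791) is the first base of its span.
Fzd1: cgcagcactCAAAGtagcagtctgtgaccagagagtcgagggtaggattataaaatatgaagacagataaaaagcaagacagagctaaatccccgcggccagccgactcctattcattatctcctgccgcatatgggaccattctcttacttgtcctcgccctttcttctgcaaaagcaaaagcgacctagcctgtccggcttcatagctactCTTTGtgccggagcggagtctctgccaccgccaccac
Ror1: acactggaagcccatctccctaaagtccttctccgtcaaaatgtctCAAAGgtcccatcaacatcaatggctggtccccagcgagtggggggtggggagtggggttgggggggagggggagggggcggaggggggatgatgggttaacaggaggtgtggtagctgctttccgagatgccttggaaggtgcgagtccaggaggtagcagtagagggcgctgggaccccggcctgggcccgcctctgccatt
Fzd7: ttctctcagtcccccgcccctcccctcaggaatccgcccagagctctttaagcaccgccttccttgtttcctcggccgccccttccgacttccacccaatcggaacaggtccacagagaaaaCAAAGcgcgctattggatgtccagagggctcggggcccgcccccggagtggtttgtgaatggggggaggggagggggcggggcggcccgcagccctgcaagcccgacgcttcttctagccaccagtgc

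The Fzd1 window held 2 of these 5-letter matches, from -241 to -237 and from -37 to -33 relative to the start. Ror1, Ror2 and Fzd7 held 1 each, and Fzd4 and Fzd5 held 0. Such a match was present in 48.6% of all 32851 windows of the same length. The longer form, CTTTG and then 2 letters that are each A or T, searched on both strands, occurred in 14.8% of all windows. Among the 6 receptor windows, only that of Fzd7 held one (from -130 to -124, overlapping its 5-letter match). A match is a description of letters and not of binding. The windows of Fzd1 and Ror1 held 12 and 8 CG pairs, fewer than the 17 to 32 in those of Fzd4, Fzd5, Fzd7 and Ror2, where the median of all windows was 6.

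The 5 remaining Frizzleds were expressed at low levels, between 0.964 and 2.93 FPKM in all libraries, and none passed the test. Fzd8 (chromosome 18, 9212163 to 9218136) and Fzd5 (chromosome 1, 64730558 to 64737751) form 1 subfamily. Fzd5 stood at 2.15, 1.89 and 2.00 FPKM in vector and at 2.37, 2.19 and 2.19 FPKM in S37A, which did not overlap (log2 difference 0.11, 95% interval -0.02 to 0.24, limma adjusted p = 0.157). Fzd8 stood at 2.93, 2.68 and 2.82 FPKM in vector and at 2.64, 2.63 and 2.75 FPKM in S37A, with overlap (log2 difference -0.05, adjusted p = 0.432). Its sign depended on scaling, at 0.00197 with median-ratio scaling and 0.0203 with quantile normalization. The ratio of Fzd5 to Fzd8 within a library was 0.715 ± 0.0154 in vector and 0.841 ± 0.0503 in S37A without overlap (SD, n = 3, exact permutation p = 0.1, or 0.12 adjusted over 6 ratios).

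Fzd3 (chromosome 14, 65192449 to 65262463) and Fzd6 (chromosome 15, 39006034 to 39038188) are the Frizzleds best known from planar cell polarity, the alignment of cells within a sheet. Fzd3 stood at 1.12, 1.32 and 1.11 FPKM in vector and at 1.08, 1.01 and 0.964 FPKM in S37A. It was the only receptor whose S37A values all lay below the vector values, and after median-ratio scaling its groups overlapped. Its log2 difference was -0.11 (95% interval -0.25 to 0.02, limma adjusted p = 0.179). Fzd6 stood at 2.44, 2.40 and 2.41 FPKM in vector and at 2.39, 2.59 and 2.72 FPKM in S37A, with overlap (log2 difference 0.06, adjusted p = 0.393). The ratio of Fzd6 to Fzd3 within a library was 2.05 ± 0.199 in vector and 2.53 ± 0.302 in S37A, without overlap (SD, n = 3, exact permutation p = 0.1, or 0.12 adjusted). Fzd4 (chromosome 7, 89404355 to 89413134), the receptor for norrin in retinal vessels, had equal means of 1.43 ± 0.117 and 1.43 ± 0.184 FPKM. With 177 to 267 fragments per library, the Fzd4 interval of -0.17 to 0.17 leaves room for a small change in either direction.

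Fzd5 and Fzd6 were the receptors with 2 transcript models each, and the split between their models was unstable among replicates. For Fzd5 the shorter model (6807 bases, against 6914) took 0% to 28.6% of the gene's FPKM in vector and 0% to 26.8% in S37A, and it was listed at 0 in replicate 3 of both groups. For Fzd6 the minor model, of 4085 bases, was listed at 0 in S37A replicate 3 and took up to 32.1% in another S37A library. The sums varied far less than the models. With the major model alone in place of the sum, the log2 difference of Fzd6 was 0.00119 and that of Fzd5 0.12, and neither was called.

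**Figure D3:**
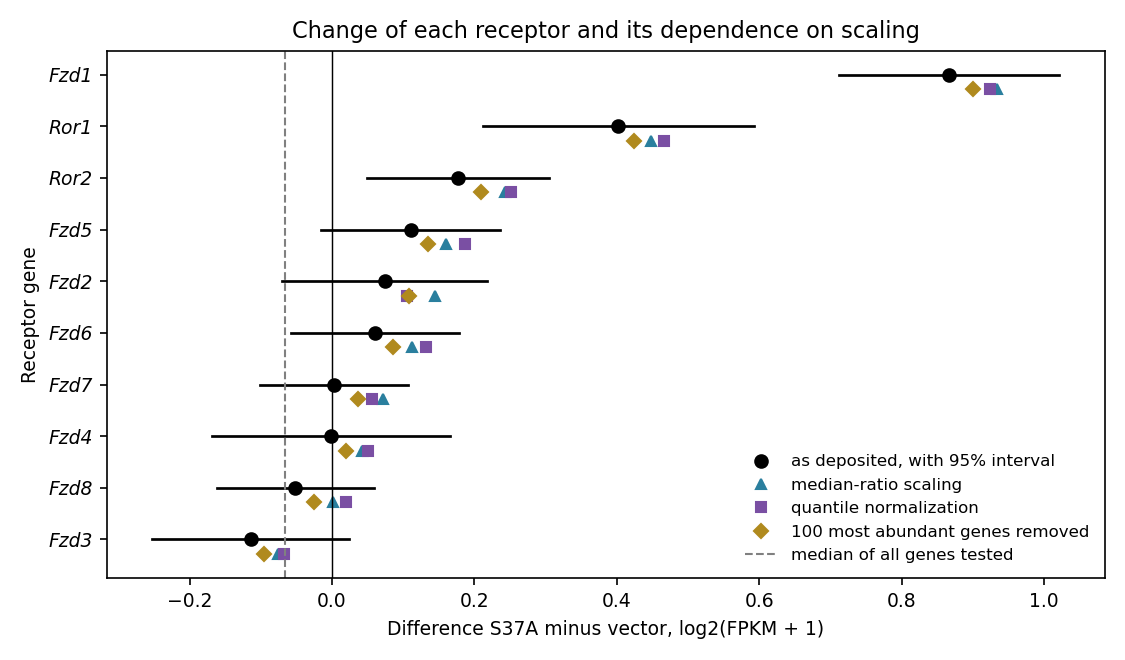
Log2 difference, S37A minus vector, of each receptor on the log2(FPKM + 1) scale with its 95% limma interval (circles and bars), and the same difference under 3 other scalings of the libraries. The intervals of Fzd1, Ror1 and Ror2 lie above 0, and every other scaling moves all 10 receptors to the right of their deposited value.

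Without a test, groups can be described by whether they overlap. S37A lay wholly above vector for 4 of the 10 receptors, Fzd1, Fzd5, Ror1 and Ror2, where 11.3% of all tested genes did so. It lay wholly below for 1, Fzd3, against 36.5% of all genes. Counted either way, 5 of 10 receptors and 47.8% of all genes had groups apart. After median-ratio scaling the receptors above numbered 5, with Fzd6 added, against 20.7% of all genes, and 0 were below, against 20.4%. With that scaling limma called 3 receptors higher, against 10.4% of all genes, and 0 lower, against 8.07%. The median difference was then 0.13 over the receptors and -0.00433 over all genes. The same 3 receptors were called higher, and 0 lower, under quantile normalization (9.1% of all genes higher, 7.96% lower) and without the 100 most abundant genes (7.55% higher, 12.6% lower).

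In order of level, Fzd2 was above Fzd7 in 6 of 6 libraries with no overlap of their ranges. Fzd7 and Fzd1 changed places between the groups, and Fzd1 and Ror2 overlapped in vector but not in S37A. Ror2 was above Fzd8 in 6 of 6 libraries, and Fzd8, Fzd6 and Fzd5 kept that order within each library although the ranges of Fzd8 and Fzd6 overlapped in S37A. Ror1 lay among the values of Fzd4 in vector, where it was the higher of the pair in 1 of 3 libraries, and above all of them in S37A. Fzd3 was lower than Fzd4 in 6 of 6 libraries and reached 1 FPKM in all but S37A replicate 3.

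The genes whose profile over the 6 libraries was most like that of Fzd1 were Cxcl14, Timp3 and Olfml2b. Likeness was measured as the root mean square difference of log2(FPKM + 1) after subtracting the vector mean, and was 0.0599, 0.115 and 0.118. Cxcl14, a chemokine, went from 4.66 ± 0.589 to 9.50 ± 0.294 FPKM, and Timp3, an inhibitor of matrix metalloproteinases, from 163 ± 3.27 to 325 ± 17.5 FPKM (limma adjusted p = 0.00154 and 7.58e-05). For Ror1 the nearest were Spink8, Srgn and Nfatc4, at 0.0436, 0.0448 and 0.0552. Nfatc4, a calcium-regulated transcription factor, went from 10.0 ± 1.28 to 14.0 ± 0.0549 FPKM (adjusted p = 0.0110). Being alike over 6 libraries in 2 groups is a description of these values. The genes were chosen for likeness to a called receptor in these same libraries, so small adjusted p-values were built into the choice.

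Of 7 other surface receptors and co-receptors of the pathway that were tested, from a list of 13, 1 rose and 0 fell (6.06% and 19.9% over all genes), with a median log2 difference of -0.09 against -0.07 for all genes. Ptk7, a pseudokinase co-receptor of planar polarity signalling, rose from 45.2 ± 1.26 to 50.1 ± 0.589 FPKM (limma adjusted p = 0.0224). It was called in 12 of 17 alternatives, with adjusted p up to 0.0733, and not without vector replicate 2 or any of the S37A replicates, among others. Ryk, a Wnt receptor with a pseudokinase domain and the most abundant gene of the list, stood at 52.9 ± 1.08 and 55.5 ± 0.0593 FPKM (adjusted p = 0.126). Ryk was called higher in 2 of 17 alternatives, under median-ratio scaling and without the 100 most abundant genes. In each of these, 2 of the 7 genes were higher and 0 lower, against 1 and 0 under quantile normalization. Lrp6 and Lrp5, named because they pair with Frizzled and with their values already seen, stood at 10.9 ± 0.271 and 9.83 ± 0.409 FPKM and at 7.87 ± 0.651 and 7.12 ± 0.338 FPKM (adjusted p = 0.0546 and 0.170). Fzd9 and Fzd10, the 2 Frizzleds outside the set, did not exceed 0.203 and 0.169 FPKM in any library and were not tested.

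Among ligands that these receptors can bind, 5 of 20 listed were expressed enough to be tested. Wnt2 and Wnt11 rose, by 0.71 and 0.62 on the log2 scale (limma adjusted p = 0.00567 and 0.00369), and none fell. Over all genes 6.06% were higher and 19.9% lower, and only 5 ligands were tested. Wnt9a and Wnt5a were the most abundant, at 31.9 ± 5.30 and 38.8 ± 2.21 FPKM and at 20.4 ± 0.643 and 21.7 ± 0.405 FPKM, but neither was past the threshold (adjusted p = 0.0891 and 0.123). Wnt5a is the ligand most closely tied to Ror1 and Ror2, and was called under median-ratio scaling, under quantile normalization and with sample weights, each time as higher. When its most abundant model replaced the sum it was called lower, with a log2 difference of -0.30. Of the secreted decoys that compete with Frizzled for Wnt, 2 of 8 were tested, and neither Frzb (2.19 ± 0.203 and 2.11 ± 0.172 FPKM) nor Sfrp1 (1.40 ± 0.282 and 1.75 ± 0.0505 FPKM) passed.

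Of 11 tested genes that set receptor turnover or block co-receptors, 2 were higher and 2 lower, where 6.06% of all genes were higher and 19.9% lower. The number lower was 1 with median-ratio scaling, 0 with quantile normalization and 1 without the 100 most abundant genes. Kremen1, a transmembrane protein that with Dickkopf proteins removes Lrp6 from the surface, rose from 17.1 ± 0.606 to 20.3 ± 0.384 FPKM (limma adjusted p = 0.010), and Dkk2 rose by 0.74 on the log2 scale. Lgr4, an R-spondin receptor through which Frizzled is protected from degradation, fell from 7.73 ± 0.918 to 5.89 ± 0.368 FPKM (adjusted p = 0.0236). Its fall was called in 12 of 17 alternatives, with adjusted p up to 0.0782, and not under quantile normalization, with no filter or without S37A replicate 2 or 3, among others. Rspo3 fell by 0.36 on the log2 scale (adjusted p = 0.0453) and was called in 5 of 17 alternatives. These included none of the 3 other scalings, and of the left-out libraries only vector replicate 1.

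Downstream of the receptors, 1 of 14 tested Dishevelled and planar polarity genes rose and 3 fell, shares close to the 6.06% and 19.9% over all genes. Prickle1, a cytoplasmic polarity protein, rose from 4.62 ± 0.534 to 6.85 ± 0.239 FPKM, and its membrane partner Vangl2 fell from 3.00 ± 0.147 to 2.16 ± 0.114 FPKM (limma adjusted p = 0.00767 and 0.00845). Dvl2, which binds the Frizzled tail, fell from 8.89 ± 0.396 to 7.27 ± 0.260 FPKM (adjusted p = 0.0125). Prickle1, Vangl2 and Dvl2 were called in all 17 alternatives. The polarity scaffold Scrib was lower by -0.20 on the log2 scale (adjusted p = 0.0299), a call kept in 7 of 17 alternatives and lost under median-ratio scaling. It was kept without vector replicate 1 and lost when any other library was left out. The casein kinases Csnk1d and Csnk1e, the most abundant of this list, did not pass (adjusted p = 0.221 and 0.141). Of 7 tested feedback targets of β-catenin, 4 rose and 0 fell: Axin2, Tcf7, Nkd1 and Nkd2. Axin2, at 0.131 ± 0.0385 FPKM in vector and 2.95 ± 0.296 FPKM in S37A, passed the filter on the mean only through S37A. Nkd2 went from 2.55 ± 0.0227 to 3.43 ± 0.159 FPKM (adjusted p = 0.00767). Lef1 was the other gene of highest level there and did not pass (adjusted p = 0.338).

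**Figure D4:**
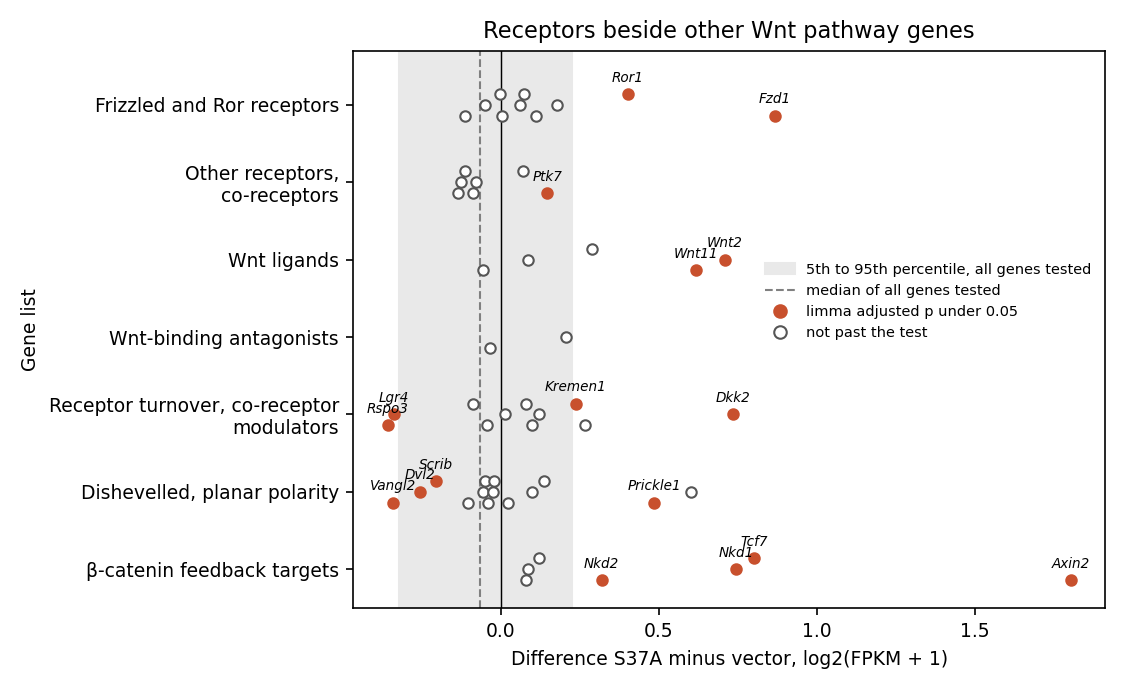
Log2 difference, S37A minus vector, of every tested gene in the receptor set and in 6 other lists of the pathway, 1 point per gene, filled where the limma adjusted p was under 0.05. The grey band spans the 5th to 95th percentile of all genes tested, -0.32 to 0.22, and Fzd1 and Ror1 lie above it.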

How the data were processed

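Complementary DNA made with a SMART-Seq v4 kit was sequenced on an Illumina HiSeq, per the labels' protocols. That kit does not mark strand. The submitters' processing notes name bcl2fastq 1.8.3, TopHat and Cufflinks with mm10. The authors deposited FPKM per transcript model with interval bounds, a coverage signal (deposited but used in no result) and model length in bases, another deposited column. Read counts were not used here, and fragment numbers are inferred by taking the half-width of an interval as 2 square roots of the fragment number, which covers counting error only.

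Model values were added up by symbol, dropping 5 symbols whose status was other than OK. A mean FPKM of 0.5 or more left 12022 genes, tested with limma 3.58.1 (R 4.3.3) on log2(FPKM + 1), which understates changes of low genes, with an intensity trend and no block. The script was tested on simulated data. Gene positions and transcripts are from GENCODE M21 (mm10). Exon numbers are those of its transcript matched to the deposited RefSeq model. Overlapping annotated genes exist for Fzd3, Fzd5, Fzd6 and Ror1.

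The members, lists and tests were chosen with earlier results of these data known. Named are all members, list genes past the test (at most 4 per list) or among the 2 of highest level, and the 3 genes of most like profile (mean of at least 2 FPKM) per called member. Alternatives changed the pseudocount, filter, scaling, trend, weights, model summing, block and libraries.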

Additional observations from a re-analysis of the deposited data

How the results depend on the processing

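Fzd1 kept its direction and call in all 17 alternatives. The log2 difference of Ror1 left the threshold without S37A replicate 3 (range 0.326 to 0.470 with 1 library left out), where 1 receptor was called higher, and Ror1 was not tested with a minimum mean of 2 FPKM. No receptor was called lower in any setting. Ror2 passed at 0.20 with pseudocounts of 0.1 and of 0.01, at 0.18 with the minimum of 2 FPKM, 0.24 with median-ratio scaling, 0.25 with quantile normalization, 0.21 without the 100 most abundant genes, 0.15 with sample weights and 0.22 without S37A replicate 1. Signs turned, with no call, for Fzd4 (0.0416, 0.0511 and 0.0194 under the same 3 scalings, and -0.0484 to 0.0595 with 1 library left out), Fzd7 (-0.0163 with sample weights, -0.0327 to 0.0260 with 1 library left out) and Fzd8 (0.00197 and 0.0203 under the first 2 scalings).

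Over all genes, 729 (6.06%) were higher and 2393 (19.9%) lower. The counts were 1251 and 970 with median-ratio scaling, 1094 and 957 with quantile normalization, 900 and 1500 without the 100 most abundant genes, 1238 and 3655 with sample weights and 522 and 1491 with the highest model. Leaving out 1 library gave 276 to 744 higher and 547 to 2406 lower. The pathway lists held 7, 5, 2, 11, 14 and 7 tested genes. Over these lists together, with a gene of several lists counted once, 10 genes rose and 5 fell. There were 6 higher with the 2 FPKM minimum and 16 higher and 9 lower with sample weights. The number lower was 3 with median-ratio scaling, 2 with quantile normalization, 2 without a filter and 2 to 7 with 1 library left out. Whether the same replicate numbers in the 2 groups mark pairs is not given. Deviations of same-numbered libraries correlated at -0.12, 0.02 and 0.10, and not every library correlated best with its own number. With 3 libraries per group these values cannot decide whether the libraries were paired. With the replicate block, 442 genes were higher and 1193 lower, 2 pathway genes were lower, and the same 2 receptors were called. Ptk7, Lgr4, Rspo3 and Scrib were not called with the block.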
